A study of Mus musculus with 16 samples.

Results

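The clustered histone genes are the genes whose symbols begin with Hist1h, Hist2h, Hist3h or Hist4h, here those with an FPKM above 0 in at least 8 of 16 libraries of mouse epididymal fat. FPKM is fragments per gene, divided by the length of its exons and by the size of the library. The annotation used here, GENCODE M21 on GRCm38, names 70 such genes among the 54532 gene IDs of the deposited table, and 41 met the detection rule. The members were thus chosen by name and by their own FPKM values over all 4 groups. By class these were 4 linker histone H1 genes, 6 genes of H2A, 13 of H2B, 7 of H3 and 11 of H4. Of the 41 genes, 34 lie on chromosome 13, 3 on chromosome 3, 3 on chromosome 11 and 1 on chromosome 6, and Hist3h2bb-ps is annotated as a pseudogene.

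Histone proteins H2A, H2B, H3 and H4 form the core around which DNA is wound, and linker histone H1 binds the DNA where it enters and leaves that core. Most histone protein of dividing cells is made in S phase from clustered genes, whose mRNAs end in a conserved stem-loop bound by the protein SLBP in place of a poly(A) tail. Some clustered genes also give polyadenylated mRNA, which is known from cells that no longer divide, and histone genes outside the clusters supply replacement variants throughout the cell cycle. Adipose tissue holds adipocytes, which rarely divide, together with macrophages, lymphocytes, endothelial cells and progenitors, some of which do.

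The libraries came from male C57BL/6 mice fed a high-fat diet for 20 weeks, in 4 groups of 4. Vehicle and tubastatin (tubastatin A-HCl, an inhibitor of the cytoplasmic deacetylase HDAC6) were labelled as 25 weeks old. AdKO carries an adipose-specific Hdac6 knockout and AdCre is its adiponectin-Cre control. Both were labelled as 28 weeks old and as vehicle-treated. Adiponectin drives Cre in adipocytes, so other cells of the fat pad keep the gene. A global HDAC6 knockout genotype is labelled for every vehicle and tubastatin animal, whereas the series' design line mentions none and puts the mice at about 28 weeks. Genotype and age in the drug comparison are therefore unsettled. Whether each library is from its own animal is not stated, and p-values cover only the variation seen between libraries. Inguinal fat was not analysed here.

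From 17388791 to 22071573 whole reads were recovered per library, and libraries of a group always differed by more than sampling noise. Summed adipocyte markers (Adipoq, Plin1, Cidec, Lipe, Fabp4) ran from 2169 to 4907 FPKM, and 4 epididymal epithelium markers together from 0.0881 to 3.0 FPKM. The targeted gene Hdac6 ranged from 2.66 to 4.11 FPKM in AdKO, overlapping 3.64 to 4.74 FPKM in AdCre, and from 1.41 to 1.78 in vehicle and 1.44 to 1.70 in tubastatin. A value per gene cannot tell if part of the gene is deleted.

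A 3′ stem-loop marks mRNAs of clustered histone genes, so the stem-loops of 6 genes described below are shown first. Each is 30 bases of the transcript, with the stem-loop in capitals and 6 bases before and 8 after it, in GRCm38 coordinates.
Hist1h1c, chr13:23739506-23739535, plus strand: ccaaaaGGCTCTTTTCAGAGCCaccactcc
Hist1h1e, chr13:23621774-23621803, minus strand: cccaaaGGCTCTTTTCAGAGCCacccacaa
Hist1h2bj, chr13:22043632-22043661, plus strand: tccaaaGGCTCTTTTCAGAGCCacgcacaa
Hist2h3c2, chr3:96238477-96238506, minus strand: cacaaaGGCTCTTTTCAGAGCCaccacagc
Hist1h4h, chr13:23531452-23531481, plus strand: accaaaGGCCCTTTTCAGGGCCgcccacat
Hist1h4i, chr13:22040958-22040987, minus strand: cttaaaGGCCCTTTTTAGGGCCaccacaaa

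Of the 41 genes, 35 held the stem-loop consensus in an annotated transcript, against 71 of 21951 protein-coding genes in the whole annotation (0.32%). The form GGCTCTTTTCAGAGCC was the commonest, in 19 genes of classes H1, H2A, H2B and H3. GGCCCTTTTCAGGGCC was found in 6 genes, all of class H4. The 6 genes without a match were Hist1h1b, Hist1h2bc, Hist1h2bn, Hist2h2be, Hist1h4k and Hist3h2bb-ps. Only annotated bases were searched, so a stem-loop past an annotated end would be missed. The annotation gives Hist1h4k 312 and Hist1h2bn 381 bases, so no match does not mean that the mRNA lacks a stem-loop. In 13 genes the stem-loop lay within 60 bases of the annotated end, as in Hist1h2bj, where 23 bases follow it. In the other 22 genes the annotation ran further. The Hist1h1c transcript goes on for 840 bases past its stem-loop and carries the polyadenylation signal AATAAA in its last 40 bases. That hexamer stood in the last 40 bases of 11 of the 41 genes, against 68.02% of protein-coding genes. A gene counted if any of its annotated transcripts held it, so genes with several transcripts had more chances. Among the 41 genes only Hist1h2be and Hist1h2bp had more than 1. Median level among the 41 genes was 1.39 FPKM in the 6 without a match, 0.563 in the 22 with a longer end and 0.287 in the 13 ending near the stem-loop. That order depends on the detection rule, which only 6 of the 24 annotated genes without a match met. Over all 70 annotated genes the medians were 0.0369 FPKM in those 24, 0.505 in 24 with a longer end and 0.122 in 22 ending near it. Whether the libraries were made from polyadenylated RNA or from all RNA is not given in the sources used here. These medians carry no test.

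The promoters of Hist1h1c and Hist1h2bj are shown because these are the tested genes whose tubastatin and vehicle libraries did not overlap. Each runs from 250 bases before to 50 after the RefSeq start (GRCm38.p6). Capitals mark the TATA box letters TATAAA, the box CCAAT, the octamer ATTTGCAT and the H1 motif AAACACA, each searched on both strands.
Hist1h1c, chr13:23738557-23738856, plus strand: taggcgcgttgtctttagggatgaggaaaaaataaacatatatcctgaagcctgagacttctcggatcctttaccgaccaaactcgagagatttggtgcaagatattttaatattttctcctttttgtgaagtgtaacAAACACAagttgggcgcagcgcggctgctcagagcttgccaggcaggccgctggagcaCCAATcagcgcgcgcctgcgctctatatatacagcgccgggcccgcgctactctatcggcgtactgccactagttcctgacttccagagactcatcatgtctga
Hist1h2bj, chr13:22042948-22043247, plus strand: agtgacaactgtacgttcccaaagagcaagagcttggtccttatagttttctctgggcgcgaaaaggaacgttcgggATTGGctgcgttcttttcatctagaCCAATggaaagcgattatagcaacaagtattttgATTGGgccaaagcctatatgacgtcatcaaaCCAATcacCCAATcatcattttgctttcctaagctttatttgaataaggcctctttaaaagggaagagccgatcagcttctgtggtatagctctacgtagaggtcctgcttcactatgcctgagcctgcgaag

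In Hist1h1c, AAACACA, the motif known from H1 promoters, began 112 bases and CCAAT 54 bases before the start. Hist1h2bj held CCAAT 148, 83 and 75 bases before the start and its reverse complement ATTGG 173 and 114 bases before it. RefSeq gave a promoter for 36 of the 41 genes. AAACACA stood in 5 of these (13.9%), among them all 4 of class H1, against 7.2% of the 32851 promoters in the table. CCAAT stood in 29 (80.6% against 37.4%), in all H1, H2A, H2B and H3 promoters and in 3 of 10 H4 promoters. TATAAA stood in 23 (63.9% against 13.6%), and ATTTGCAT, the octamer known from H2B promoters, in 7 (19.4% against 1.7%), of which 4 were H2A and 3 H2B. Promoters of genes that start close together on opposite strands overlap, so a site can count for both genes. Those of Hist1h2ae (chr13:23571171-23571470) and Hist1h2bg (chr13:23571150-23571449), each with the octamer, share most of their bases. The 36 promoters are therefore not independent. In 0 of the 36 promoters did 2 different motifs share letters. A match describes letters and not binding.

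A single gene made up most of each class except H2A. Hist1h2bc (H2B) had the highest mean over the 16 libraries, 91.6 FPKM, which was 85.3% of the H2B sum. Hist1h1c (H1) followed at 72.1 FPKM and 95.04% of the H1 sum. Hist1h4h (H4) stood at 20.9 FPKM (65.3% of its class), Hist2h3c2 (H3) at 4.43 FPKM (68.1%) and Hist3h2a (H2A) at 2.24 FPKM (46.0%). The summed class levels ran over the libraries from 78.5 to 149 FPKM for H2B, 58.3 to 96.8 for H1, 20.7 to 41.4 for H4, 3.51 to 9.95 for H3 and 3.03 to 8.69 for H2A. Core histones form the nucleosome in equal numbers, while the summed level of the clustered H2B genes lay above that of the clustered H2A genes in every library. H2A genes outside the clusters are not in these sums, such as H2afz and H2afj, with vehicle means of 72.6 and 25.3 FPKM. The sums therefore do not give the balance of all H2A and H2B mRNA. These sums may not be comparable. All 20 annotated H2A genes overlap an exon on the opposite strand, against 1 of 19 H2B genes. Whether strand was used in counting is not given, and the part of this overlap in the sums was not tested.

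**Figure D1:**
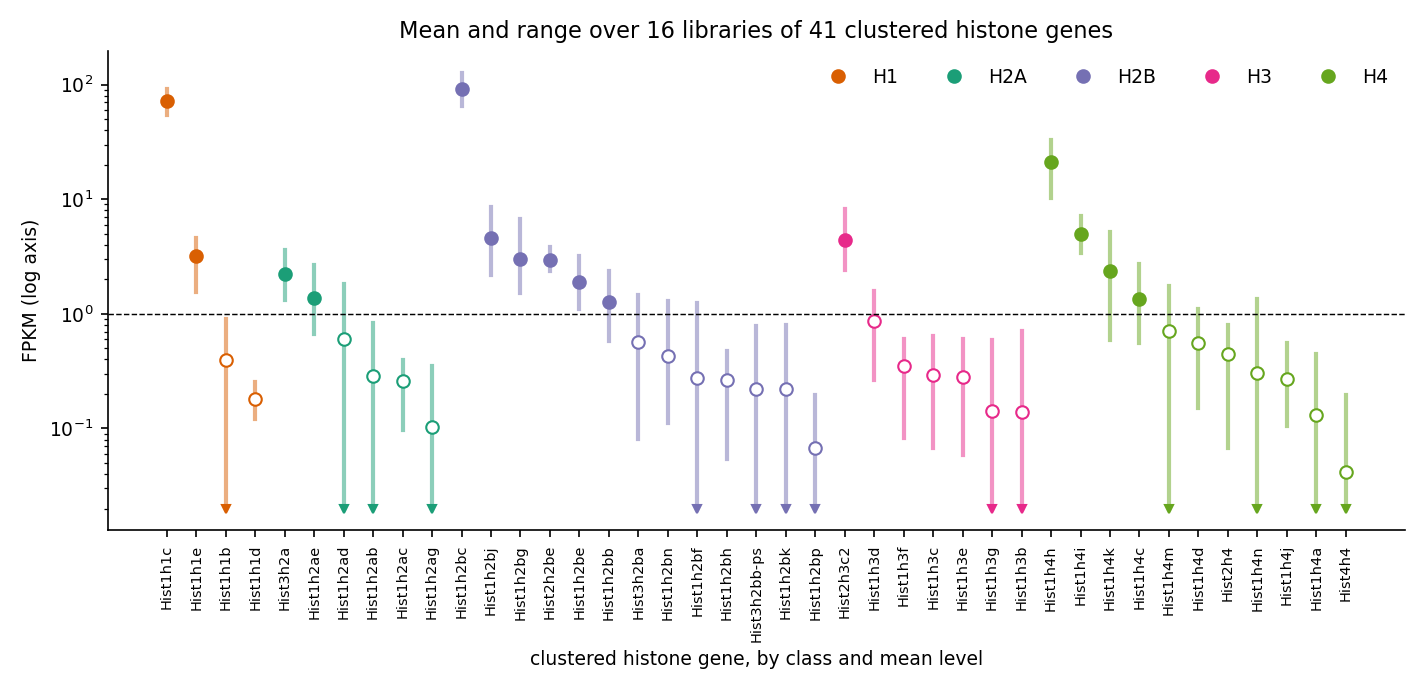
Mean FPKM over the 16 libraries (circles, log axis) and the lowest to highest library (bars) of each of the 41 genes, ordered by class and mean. Filled circles are the 15 genes with a mean of at least 1 FPKM (dashed line), triangles at the foot of the axis mark a lowest value of 0, and Hist1h2bc, Hist1h1c and Hist1h4h stand apart from the rest.

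The other genes were low. Of the 41 genes, 15 had a mean of at least 1 FPKM and entered the tests, and all 15 were above 0 in every library. These were Hist1h1c and Hist1h1e of H1, Hist3h2a and Hist1h2ae of H2A, and Hist2h3c2 of H3. Class H2B gave Hist1h2bc, Hist1h2bj, Hist1h2bg, Hist2h2be, Hist1h2be and Hist1h2bb, and class H4 gave Hist1h4h, Hist1h4i, Hist1h4k and Hist1h4c. The remaining 26 genes had means of 0.0421 (Hist4h4) to 0.869 FPKM (Hist1h3d). In all, 27 of the 41 genes were above 0 in all 16 libraries. Just inside the detection rule, Hist1h2bp and Hist1h4a were above 0 in 8 libraries, with means of 0.0671 and 0.131 FPKM. Just outside it, Hist1h3h, Hist2h2ac and Hist1h3i were above 0 in 6 libraries, with means of 0.0757, 0.0785 and 0.0809 FPKM. These values chose the genes and are a description only.

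Near-identical copies and overlapping genes make single values uncertain. The share of 50-base windows of a gene's transcripts that no other annotated gene holds had a median of 59.6% among the 41 genes, with a range of 10.2 to 100%. In the 29 genes below the rule the median was 12.4%. Of the 9 genes listed at 0 in every library, 5 had no such window at all, namely Hist2h2aa1, Hist2h2aa2, Hist2h2bb, Hist2h3b and Hist2h3c1. Other annotated genes overlap 100% of the bases of these 5, on the same strand for Hist2h3c1 and on the opposite strand for the others. Windows were compared on both strands, so this overlap alone can leave a gene without a window of its own. The sources used here do not state how reads that match several copies or overlapping genes were assigned. A 0 in those 5 genes therefore cannot be read as no expression. Among the tested genes the share was 91.5% for Hist1h1c, 69.4% for Hist1h2bc, 54.2% for Hist1h4h, 40.6% for Hist1h2bj, 36.5% for Hist2h3c2 and 28.5% for Hist1h4k. Exons of Hist1h1e, Hist1h2be and the predicted gene Gm11398 overlap on the same strand, over 25.7% of the bases of Hist1h1e and 11.2% of those of Hist1h2be. Hist3h2a overlaps Trim17 over 33.0% of its bases. Each of the 6 H2A genes overlaps a predicted gene on the opposite strand, over 5.6 to 29.2% of its bases, and whether strand was used in counting is not given in the sources used here.

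**Figure D2:**
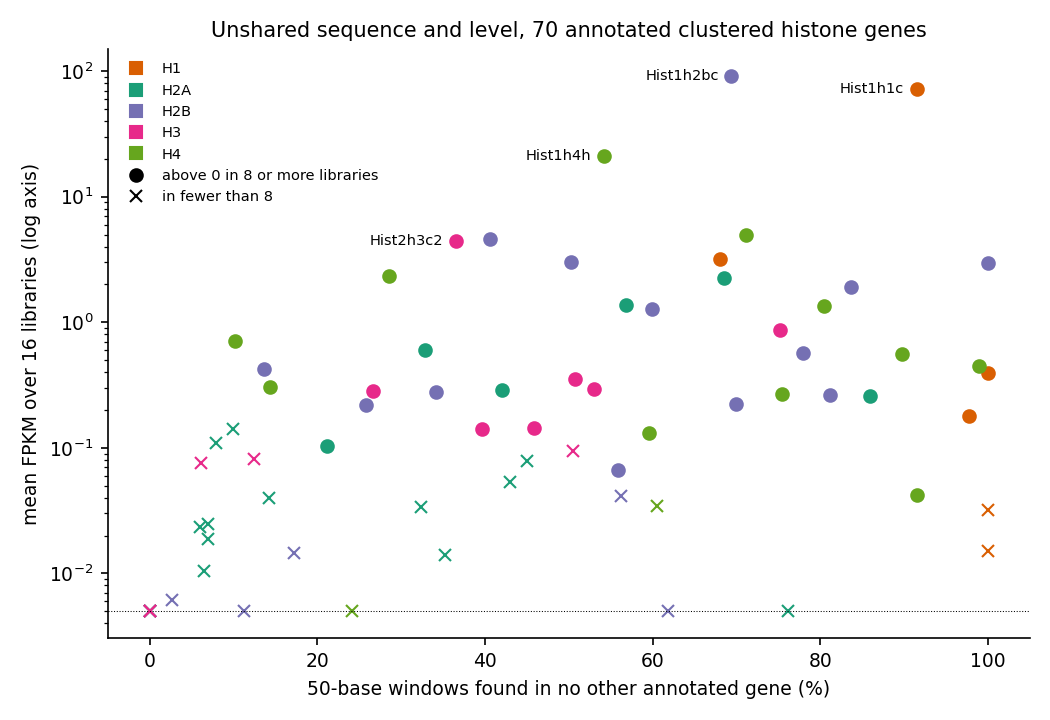
Share of 50-base windows found in no other annotated gene (x axis, percent) against mean FPKM over 16 libraries (y axis, log) for the 70 annotated clustered histone genes, coloured by class. Circles are the 41 genes above 0 in 8 or more libraries and crosses the other 29, of which the 9 at 0 throughout lie on the dotted line, 5 of them at 0% on the x axis.

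The first comparison asks how the histone genes differ in fat of mice given tubastatin A. Hist1h1c was higher in all 4 tubastatin libraries than in any vehicle library, and the H2B gene Hist1h2bj was lower in all 4. Neither passed limma's test after adjustment over all 13271 genes with a mean of at least 1 FPKM. Of the 15 tested histone genes 0 were called at an adjusted p under 0.05, and 0 of the 13271 genes were called at all (0%). In these bulk libraries, fewer cells of a type and less RNA per cell cannot be told apart.

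Hist1h1c, a linker histone gene (ENSMUSG00000036181, chr13:23738808-23740367, plus strand, 1 exon), stood at 56.6, 61.5, 63.6 and 66.7 FPKM in vehicle replicates 1 to 4. In tubastatin replicates 1 to 4 it stood at 87.3, 92.3, 91.8 and 91.9 FPKM. The lowest tubastatin library lay above the highest vehicle library, and both groups were tight. The means were 90.8 ± 2.36 FPKM against 62.1 ± 4.24 (SD, n = 4 each), from 1690 to 3375 reads per library. The log2 fold change was 0.54 (SE 0.06), with a limma adjusted p of 0.128. With values rescaled to TPM it was 0.63 with a limma adjusted p of 0.0473, and with limma voom on the recovered reads scaled by library totals 0.59 with an adjusted p of 0.0260. Under each of these 2 scalings Hist1h1c was the single gene called of all genes tested, 13271 for TPM and 12599 for voom. When voom used the scale that the deposited table carries, the adjusted p was 0.124 and 0 genes were called. Over all alternatives run the fold change stayed between 0.50 and 0.63 and the adjusted p between 0.0260 and 0.387. The other tested H1 gene, Hist1h1e, had a log2 fold change of -0.14 (SE 0.23, adjusted p = 0.825 by limma).

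Hist1h2bj (chr13:22043214-22043676, plus strand), an H2B gene whose start lies 269 bases from that of the H2A gene Hist1h2ag on the other strand, stood at 4.62, 5.09, 4.44 and 4.59 FPKM in vehicle. In tubastatin it stood at 3.14, 2.59, 2.59 and 2.16 FPKM. The highest tubastatin library lay below the lowest vehicle library. The means were 2.62 ± 0.400 FPKM against 4.69 ± 0.282 (SD, n = 4 each), and the values rest on 20 to 47 reads per library. The log2 fold change was -0.66 (SE 0.09), with a limma adjusted p of 0.128. It ran from -0.83 to -0.59 over the alternatives run, with adjusted p-values of 0.0551 to 0.403. Hist1h2ag was at 0.353 FPKM or less in these 8 libraries and was not tested.

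**Figure D3:**
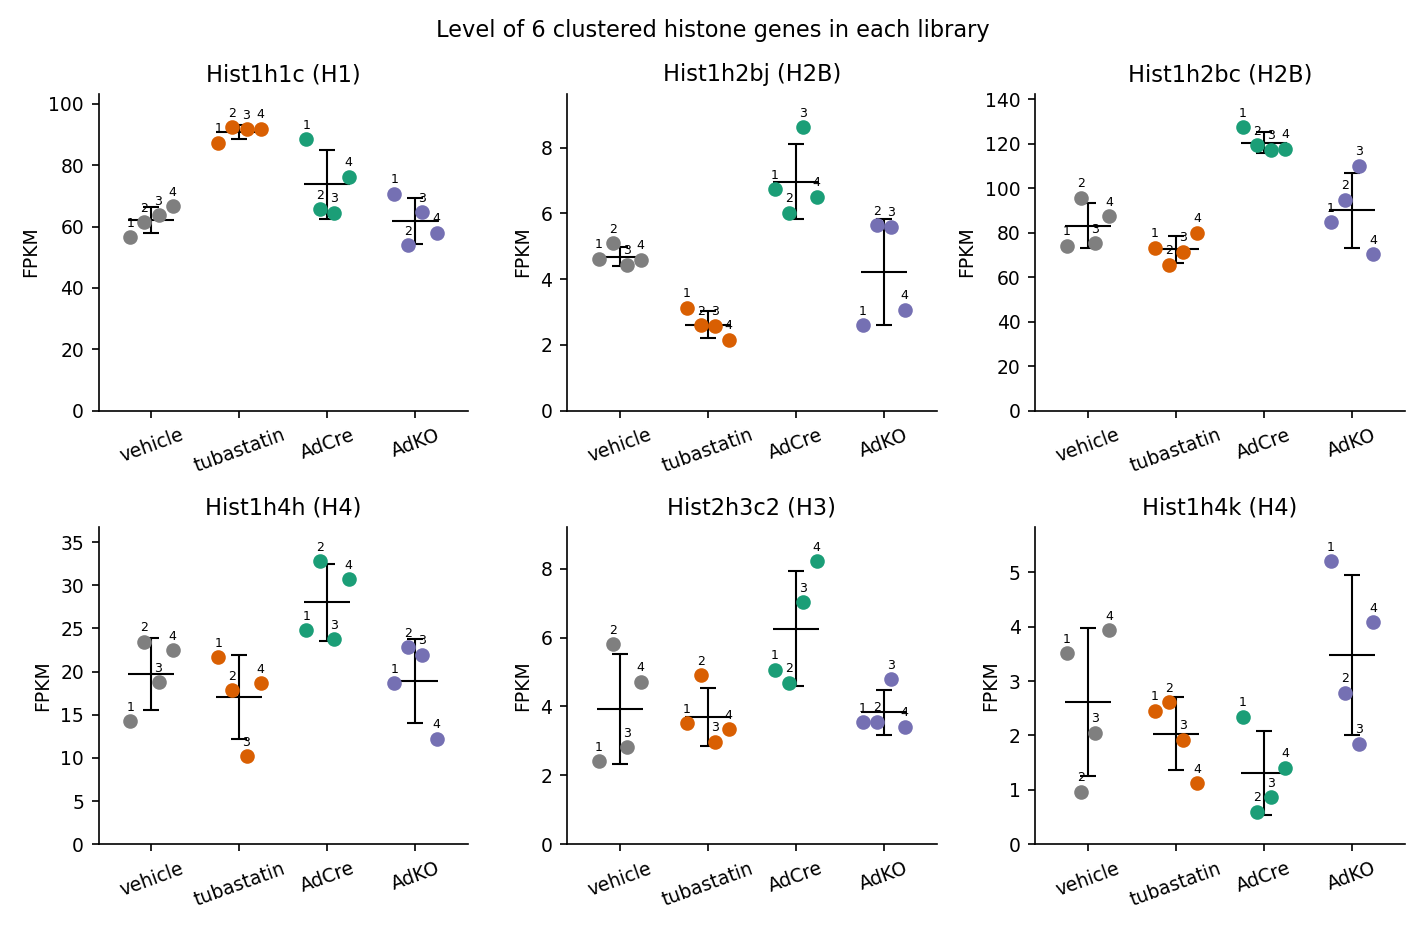
FPKM of 6 clustered histone genes in each library (points, with the replicate number above), with the group mean (horizontal line) and SD (bar), 4 libraries per group. Hist1h1c in tubastatin lies at 87.3 to 92.3 FPKM, above the vehicle libraries at 56.6 to 66.7, and Hist1h2bj in tubastatin lies below vehicle.

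The more abundant Hist1h2bc, the main source of H2B mRNA here, did not share the separation of Hist1h2bj. It stood at 74.3, 95.7, 75.4 and 87.5 FPKM in vehicle and at 73.2, 65.5, 71.4 and 80.1 FPKM in tubastatin, and the groups overlapped. Its log2 fold change was -0.19 (SE 0.10, adjusted p = 0.463 by limma), and -0.12 without vehicle replicate 2. Hist1h2be stood at 1.22, 2.43, 1.66 and 1.90 FPKM in vehicle and at 1.59, 1.36, 1.10 and 1.59 FPKM in tubastatin. Those groups overlapped too, with a log2 fold change of -0.21 (SE 0.14, adjusted p = 0.555 by limma). Without vehicle replicate 2 this was -0.10, and without vehicle replicate 1 it was -0.31.

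The leading genes of the other core classes overlapped between vehicle and tubastatin. Hist1h4h stood at 14.2, 23.5, 18.7 and 22.5 FPKM in vehicle and at 21.6, 17.9, 10.2 and 18.6 in tubastatin. Hist2h3c2 stood at 2.41, 5.80, 2.82 and 4.72 FPKM in vehicle and at 3.52, 4.92, 2.98 and 3.34 in tubastatin. Hist3h2a stood at 2.26, 1.33, 2.30 and 3.10 FPKM in vehicle and at 1.94, 2.76, 2.65 and 2.31 in tubastatin. The log2 fold changes of these 3 genes were -0.22, -0.03 and 0.09, each within its SE of 0, with limma adjusted p-values of 0.706 to 0.963. The value of Hist1h4h rested on single libraries, at -0.36 without vehicle replicate 1 and -0.0049 without tubastatin replicate 3.

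Over the 15 tested genes, 1 (Hist1h1c) was higher without overlap, where 3.53% of all tested genes were, and 1 (Hist1h2bj) lower, where 3.62% were. At an unadjusted p under 0.05 the same 2 genes stood out, 1 higher and 1 lower, against 5.94% and 6.1% of all genes, or 1597 of 13271 genes in both directions. The split over all genes moved with the scaling, from 788 higher and 809 lower to 1684 and 246 under TPM, and 1187 and 436 of 12599 by voom on the library totals. Fold changes were positive in 3 of the 15 histone genes and negative in 12, with a median log2 fold change of -0.14, beside -0.01 for all genes. Without vehicle replicate 4 the median of the 15 was -0.018, with 6 positive. With no filter on low values all 41 genes gave 20 positive and a median of -0.033. Summed by class, tubastatin lay at 94.1 ± 2.72 FPKM against 65.6 ± 4.96 in vehicle for H1, a log2 ratio of 0.52 carried by Hist1h1c. For H2B the sums were 85.9 ± 6.21 against 98.5 ± 10.4 FPKM, and for H4 26.9 ± 4.97 against 31.0 ± 6.03. For H3 they were 5.77 ± 0.605 against 5.64 ± 2.12 FPKM, and for H2A 4.64 ± 0.832 against 4.88 ± 1.35 (SD, n = 4 each). The sums of the 4 core classes overlapped between the groups and those of H1 did not. These sums carry no test.

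Cell type markers differed between the same libraries. Neutrophil markers (5 genes, summed) reached 11.1 to 18.9 FPKM with vehicle and 20.7 to 40.4 FPKM with tubastatin, without overlap, and S100a9 and Retnlg had log2 fold changes of 1.60 and 1.24. Summed T cell markers (4 genes) stood at 8.70 to 17.2 against 3.35 to 9.26 FPKM, and summed adipocyte markers at 2279 to 3924 against 2282 to 2647. Their part in the histone values was not tested.

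The second comparison asks how the same genes differ with the adipose-specific Hdac6 knockout. The core histone genes Hist1h2bc, Hist1h2bj and Hist1h4h stood lower in all 4 AdKO libraries than in any AdCre library, while the low H4 gene Hist1h4k had a higher mean. None passed the adjusted test. Of the 15 tested histone genes 0 were called, as were 0 of 13271 genes (0%), and 1452 of 13271 genes had an unadjusted p under 0.05 by limma and 1361 of 12599 by voom on the library totals. These were 635 higher and 817 lower by limma, 757 and 642 under TPM, and 789 and 572 by voom.

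Hist1h2bc (chr13:23684199-23692908, plus strand) stood at 127, 119, 117 and 118 FPKM in AdCre replicates 1 to 4 and at 84.7, 94.9, 110 and 70.3 in AdKO replicates 1 to 4. All 4 AdKO libraries lay below all 4 AdCre libraries, and the AdKO libraries were spread much wider. The means were 90.02 ± 16.8 FPKM against 120 ± 4.67 (SD, n = 4 each), with a log2 fold change of -0.43 (SE 0.13, adjusted p = 0.353 by limma). Without AdKO replicates 1 and 4, which had the lowest summed adipocyte markers of the group, it was -0.23. These were also the lowest AdKO libraries for this gene, so leaving them out had to shrink the fold change. The same holds below for Hist1h2bj, Hist1h4h and Hist1h2be, and for Hist1h4k, where they were the highest. The smaller values therefore do not show what lowered these libraries.

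Hist1h2bj stood at 6.74, 6.02, 8.62 and 6.51 FPKM in AdCre and at 2.60, 5.64, 5.60 and 3.07 in AdKO. AdKO replicates 1 and 4 lay far below the rest, and replicates 2 and 3 lay just below the lowest AdCre library. The log2 fold change was -0.65 (SE 0.22, adjusted p = 0.383 by limma), and -0.26 without AdKO replicates 1 and 4. The unadjusted limma p was 0.0174 with all libraries and 0.0937 without those, a fit with fewer AdKO libraries.

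Hist1h4h (chr13:23531050-23531519, plus strand), the main H4 gene, stood at 24.8, 32.8, 23.8 and 30.7 FPKM in AdCre and at 18.6, 22.8, 21.96 and 12.2 in AdKO. The groups did not overlap, though AdKO replicate 2 came close to AdCre replicate 3. The means were 18.9 ± 4.82 FPKM against 28.0 ± 4.43 (SD, n = 4 each), with a log2 fold change of -0.57 (SE 0.20, adjusted p = 0.402 by limma), and -0.30 without AdKO replicates 1 and 4.

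Hist2h3c2 (chr3:96238108-96239127, minus strand), the only H3 gene tested, stood at 5.07, 4.69, 7.03 and 8.23 FPKM in AdCre and at 3.55, 3.56, 4.8 and 3.41 in AdKO. AdKO replicate 3 reached into the AdCre range and the other 3 AdKO libraries lay below it. The log2 fold change was -0.57 (SE 0.17), and its limma adjusted p of 0.340 was the smallest of the 15 genes. Of the 50-base windows of Hist2h3c2, 36.5% are unshared, so its value may hold reads of several copies. Hist2h3c1 on the same chromosome was listed at 0, and the predicted gene Gm20634 covers 100% of its bases on the same strand.

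Hist1h2be (chr13:23583670-23621124, minus strand) stood at 2.76, 2.41, 3.17 and 2.48 FPKM in AdCre and at 1.30, 2.59, 1.75 and 1.29 in AdKO. AdKO replicate 2 lay within the AdCre range and the other AdKO libraries below it, with a log2 fold change of -0.46 (SE 0.15, adjusted p = 0.383 by limma), and -0.23 without AdKO replicates 1 and 4. Hist1h2bb gave -0.53 (SE 0.19, adjusted p = 0.409 by limma). Hist1h1c stood at 88.5, 65.7, 64.5 and 76.3 FPKM in AdCre and at 70.7, 53.8, 64.7 and 58.0 in AdKO. Its groups overlapped, with a log2 fold change of -0.25 (SE 0.13, adjusted p = 0.518 by limma), and -0.16 without AdCre replicate 1.

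Hist1h4k (chr13:21750194-21750505, minus strand), another H4 gene, stood at 2.34, 0.596, 0.862 and 1.41 FPKM in AdCre and at 5.21, 2.79, 1.85 and 4.09 in AdKO. Only AdCre replicate 1 and AdKO replicate 3 overlapped. These values rest on 4 to 31 reads per library and on a gene with 28.5% of its windows unshared. The log2 fold change was 0.96 (SE 0.30, adjusted p = 0.362 by limma), the largest in either direction among the 15 genes in this comparison. Without AdKO replicates 1 and 4 it was 0.57, and by voom on the library totals 1.46. Hist3h2a, the leading H2A gene, stood at 2.34, 2.27, 1.92 and 1.71 FPKM in AdCre and at 3.62, 1.55, 1.41 and 2.31 in AdKO, with a log2 fold change of 0.03 (SE 0.20) whose sign turned without AdKO replicate 1 (-0.16).

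**Figure D4:**
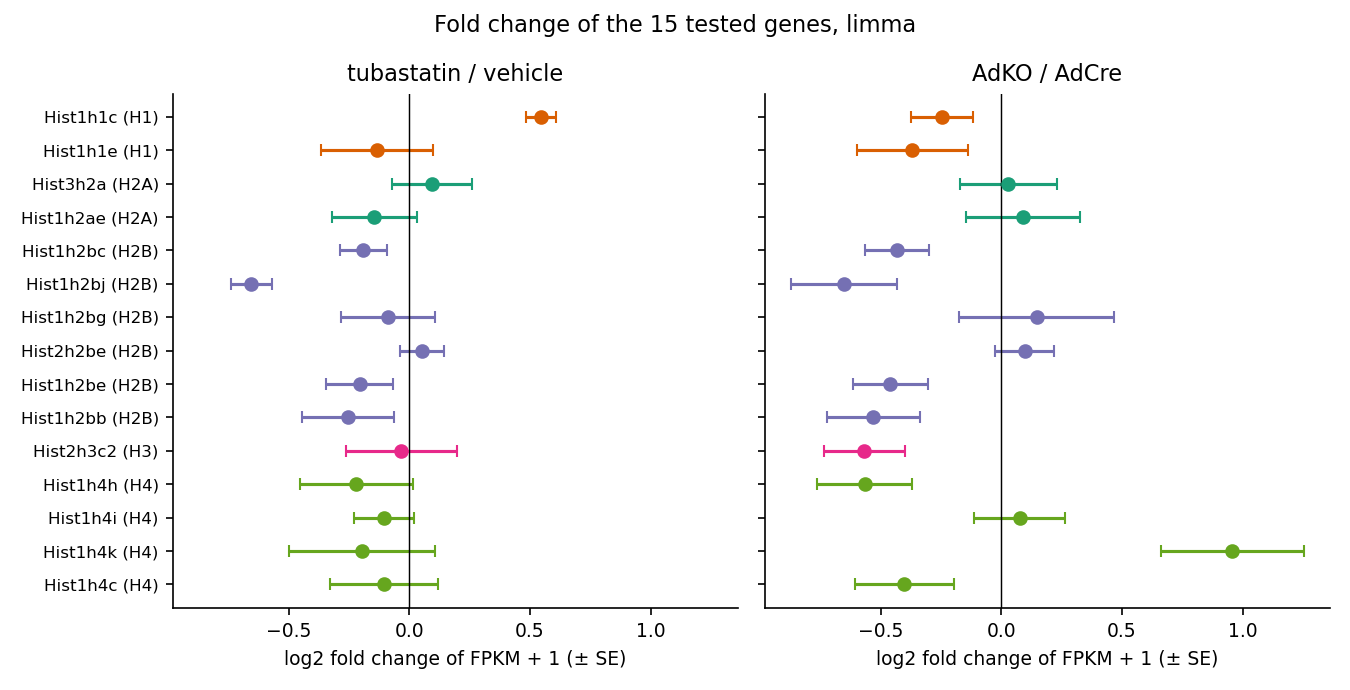
Log2 fold change of FPKM + 1 (points) with its SE (bars) from limma for the 15 tested genes, tubastatin against vehicle on the left and AdKO against AdCre on the right, coloured by histone class. Hist1h1c lies at 0.54 on the left and -0.25 on the right, while Hist1h2bj lies at -0.66 and -0.65.

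Over the 15 tested genes, 3 were lower without overlap, where 3.7% of all tested genes were, and 0 higher, where 2.78% were. At an unadjusted p under 0.05, 6 were lower and 1 higher, against 6.16% and 4.78% of all genes. Without AdKO replicates 1 and 4, a fit with fewer libraries, the counts were 2 lower and 0 higher, where 559 and 500 of all 13271 genes were. The 6 lower genes were Hist2h3c2, Hist1h2bc, Hist1h2be, Hist1h2bj, Hist1h4h and Hist1h2bb, and the higher gene was Hist1h4k. Fold changes were negative in 9 genes and positive in 6, with a median log2 fold change of -0.37, beside 0.0041 for all genes. Without AdKO replicate 4 that median was -0.22, and without AdKO replicates 1 and 4 it was -0.23, with 3 positive. With no filter on low values all 41 genes gave 20 positive and a median of -0.025. Summed by class, AdKO lay at 106 ± 16.9 FPKM against 140 ± 6.30 in AdCre for H2B, at 6.29 ± 0.930 against 8.33 ± 1.33 for H3 and at 31.5 ± 4.66 against 38.8 ± 3.49 for H4. For H1 the sums were 65.4 ± 7.42 against 78.3 ± 10.9 FPKM, and for H2A 5.25 ± 2.34 against 4.69 ± 0.792 (SD, n = 4 each). The groups did not overlap for H2B, and overlapped for H1 and H2A. For H3 they nearly touched, with the highest AdKO library at 6.95 FPKM and the lowest AdCre library at 6.99. For H4 the highest AdKO library, at 34.9 FPKM, lay above the lowest AdCre library, at 34.0. No test was made of these sums.

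The AdKO libraries also differed among themselves in cell type markers. Summed adipocyte markers stood at 2563, 4349, 4674 and 2169 FPKM in AdKO replicates 1 to 4, and at 3846 to 4907 in AdCre. Summed macrophage markers (Adgre1, Cd68, Csf1r, C1qa, Trem2) stood at 2428, 1081, 990 and 1729 FPKM in AdKO and at 910 to 1620 in AdCre. Summed neutrophil markers stood at 59.0, 17.0, 149 and 127 FPKM in AdKO and at 23.97 to 43.6 in AdCre. Summed T cell markers stood at 7.24, 3.30, 6.53 and 11.1 FPKM in AdKO and at 2.03 to 4.75 in AdCre, and 4 mesothelial markers together at 60.3 to 133 against 37.6 to 71.04. At an unadjusted limma p under 0.05, 4 of 5 neutrophil, 3 of 4 mesothelial, 2 of 4 T cell and 0 of 5 macrophage markers were higher in AdKO, and 0 were called. AdKO replicate 4 was the lowest of its group in 6 of the 15 tested histone genes and the highest in 0. AdKO replicate 1 was the highest in 6, among them Hist1h1c, Hist3h2a and Hist1h4k, and the lowest in Hist1h2bj and Hist1h4c. The part of the tissue's makeup in these values was not tested.

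**Figure D5:**
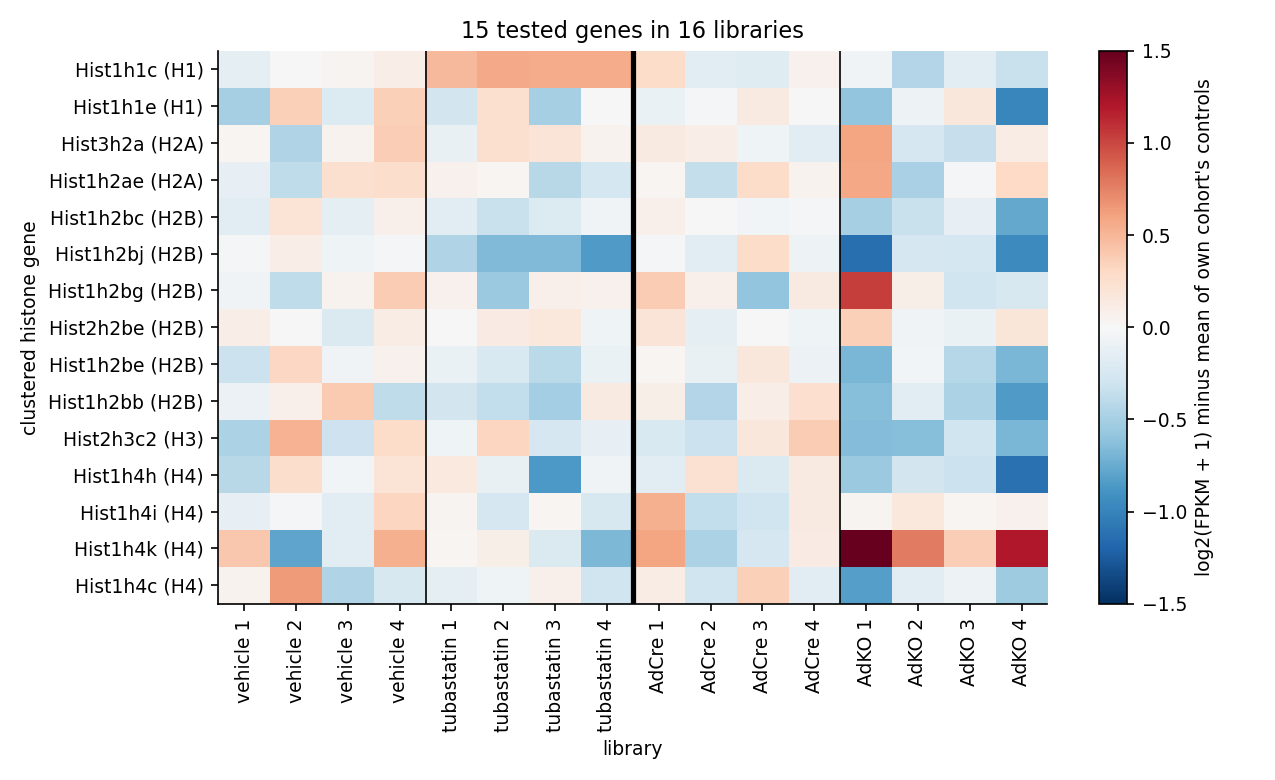
Log2(FPKM + 1) of the 15 tested genes (rows) in 16 libraries (columns), each minus the mean of its own cohort's control group, vehicle for the first 8 libraries and AdCre for the last 8; red is higher, blue lower. Hist1h1c is red in the 4 tubastatin libraries. All 4 AdKO libraries lie on the blue side for Hist1h2bc, Hist1h2bj and Hist1h4h and on the red side for Hist1h4k. In each of these genes AdKO replicates 1 and 4 lie furthest from the AdCre mean.

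The difference of both effects was tested over all 16 libraries, since a gene may pass in one cohort and not in the other without differing between them. The cohorts also differ in labelled age and genotype. A difference between drug and knockout effects therefore cannot be told apart from cohort, age or genotype. For Hist1h1c the tubastatin effect less the AdKO effect was 0.79 on the log2 scale (SE 0.14), with a limma p of 7.4e-05 and an adjusted p of 0.0917. The same difference was -1.15 (SE 0.45, adjusted p = 0.470) for Hist1h4k, 0.53 (SE 0.30, adjusted p = 0.621) for Hist2h3c2 and 0.24 (SE 0.17, adjusted p = 0.689; 0.13 without AdKO replicate 4) for Hist1h2bc, by the same limma fit. For Hist1h2bj it was -0.0036 (SE 0.25), from effects of -0.66 and -0.65. Of the 15 histone genes 0 were called, as were 0 of 13271 genes (0%), while 1198 genes had an unadjusted p under 0.05 by limma and 1085 of 12599 by voom on the library totals. The 1198 were 592 higher and 606 lower, while TPM gave 964 higher and 375 lower. At that threshold 1 of the 15 genes was higher (Hist1h1c), against 4.46% of all genes, and 1 lower (Hist1h4k), against 4.57%.

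Levels of some genes also differed between the control groups of the cohorts. Hist1h2bc stood at 117 to 127 FPKM in AdCre and 74.3 to 95.7 in vehicle, Hist1h2bj at 6.02 to 8.62 and 4.44 to 5.09, and Hist1h4h at 23.8 to 32.8 and 14.2 to 23.5. These ranges did not overlap. Those of Hist1h1c did, at 64.5 to 88.5 FPKM in AdCre and 56.6 to 66.7 in vehicle. So did those of Hist2h3c2 (4.69 to 8.23 and 2.41 to 5.80) and Hist3h2a (1.71 to 2.34 and 1.33 to 3.10). The share of all genes without overlap between AdCre and vehicle was not counted. Summed adipocyte markers were 3846 to 4907 FPKM in AdCre and 2279 to 3924 in vehicle. Cohort, age and genotype cannot be told apart here, and no test was made.

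Lists of genes tied to histones, their mRNA or proliferation follow. Of all 13271 tested genes 0 were called in either cohort (0%), so 0 calls in a list do not set it apart. At an unadjusted limma p under 0.05, 5.94% of all genes were higher and 6.1% lower with tubastatin. With AdKO these shares were 4.78% and 6.16%. Of 11 replacement histone genes outside the clusters, all tested, 0 were called. H1f0, a linker histone known from differentiated cells, stood at 53.5 ± 8.82 FPKM in tubastatin against 37.8 ± 3.02 in vehicle (SD, n = 4 each) without overlap, a log2 fold change of 0.48 (SE 0.12, adjusted p = 0.275 by limma). It was at 43.0 ± 6.57 in AdKO against 44.3 ± 5.23 in AdCre. H1f0 was the 1 gene of the 11 with an unadjusted p under 0.05 with tubastatin, and H2afx, the variant marked at DNA breaks, the 1 with AdKO, at 16.2 ± 4.02 against 11.98 ± 1.14 FPKM (log2 fold change 0.38). Next in order of p came Cenpa, the centromere variant, with tubastatin (log2 fold change 0.22) and H2afy, which encodes macroH2A, with AdKO (0.14).

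Of 15 genes that transcribe or process histone mRNA, 14 were tested and 0 were called. Their summed level overlapped between the groups, at 99.1 to 105 FPKM in vehicle, 100 to 103 in tubastatin, 98.5 to 103 in AdCre and 99.1 to 103 in AdKO. Coil, the scaffold of Cajal bodies, stood at 3.07 ± 0.179 FPKM in tubastatin against 2.64 ± 0.134 in vehicle (log2 fold change 0.16, adjusted p = 0.378 by limma). It was the 1 gene of this list with an unadjusted p under 0.05 with tubastatin, and 0 reached that with AdKO. Cpsf3, the nuclease that cuts histone pre-mRNA, followed with tubastatin (log2 fold change -0.07). With AdKO the smallest p-values were those of Lsm11, a protein of the U7 particle, at 1.59 ± 0.172 FPKM against 1.91 ± 0.181, and of the cap-binding Ncbp1 (log2 fold change -0.10). Of 16 histone chaperones, all tested, 0 were called. Hjurp, the chaperone of the centromere variant Cenpa, had log2 fold changes of 0.15 with tubastatin and 0.21 with AdKO, each with an unadjusted p under 0.05. Asf1b, an H3 and H4 chaperone, followed with tubastatin (0.21), and Nap1l1, an H2A and H2B chaperone, stood at 69.9 ± 4.14 FPKM in AdKO against 82.4 ± 4.98 in AdCre (log2 fold change -0.23, adjusted p = 0.375 by limma).

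Of 21 genes of S phase and proliferation, all tested, 0 were called. Mcm7, a subunit of the replicative helicase, stood at 8.32 ± 0.245 FPKM in tubastatin against 9.5 ± 0.891 in vehicle (log2 fold change -0.17, adjusted p = 0.383 by limma), and Cdk1, the mitotic kinase, at 3.61 ± 0.668 against 2.95 ± 0.592. Cdk2, the kinase of S phase entry, stood at 6.39 ± 0.850 in AdKO against 5.35 ± 0.316 in AdCre (log2 fold change 0.21, adjusted p = 0.451 by limma), followed by Rrm1, a ribonucleotide reductase subunit (0.20). The summed S phase level was 168 to 192 FPKM in tubastatin and 147 to 200 in vehicle, and 125 to 232 in AdKO and 139 to 173 in AdCre. AdKO replicate 1 held the highest sum, 232 FPKM. Hist1h4k was also highest in that library, while Hist1h2bc and Hist1h4h were lower there than in any AdCre library.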

How the data were processed

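The authors deposited 1 table of FPKM values for 16 libraries, all matched to samples by title. Total RNA was taken up in Trizol, DNase-treated and purified on columns, per the labels' protocols. The sources used here do not name a library kit, aligner, counting tool, build or use of strand. The deposited FPKM values carry median-of-ratios scaling, since the median ratio to the gene-wise geometric mean was 1.0029 in every library. With exon-union lengths from GENCODE M21, 96.3 to 96.5% of values above 0 came out as whole reads within 0.01 read. That held in all libraries for 12599 of 13271 tested genes (94.9%) and for all 70 annotated clustered histone genes.

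The 13271 genes whose mean FPKM reached 1 entered limma-trend (limma 3.58.1 under R 4.3.3) as log2(FPKM + 1), two-sided, with Benjamini-Hochberg adjustment over all of them at 0.05. The scale understates changes of low genes. Each cohort used its own 8 libraries, and the difference of effects all 16. Non-overlap means that every library of one group lies on one side of every library of the other. Unshared sequence was counted in 50-base windows over all annotated transcripts, on both strands and including genes that overlap the gene itself. Tables and figures used Python 3.11.15 with pandas 2.3.3 and matplotlib 3.10.9.

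Values per library are given for the highest gene of each class, for the 4 tested genes of smallest p in each comparison and for tested genes without overlap. Other lists are given as counts with the 2 genes of smallest p. The genes and lists were chosen with earlier results of these data known. Alternatives were pseudocounts of 0.1 and 0.5, TPM, a minimum mean FPKM of 5 or none, median-of-ratios factors, 1 shared spread, no trend, the replicate number as a block, limma voom on recovered reads, and each library left out. Voom on the table's own scale and AdKO replicates 1 and 4 left out together were chosen after seeing the data.

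On simulated reads of 12599 genes with 50 changed per fold size, the tubastatin fit recovered 19, 33, 38 and 44 for folds of 1.5, 2, 3 and 4, with 7 false calls. The AdKO fit recovered 17, 36, 42 and 45 with 6 false calls, and the difference of effects 12, 29, 41 and 41 with 12.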

Additional observations from a re-analysis of the deposited data

Results flagged for a closer look

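Among 52 groups of 4 libraries looked at, 3 held a library far from the other 3 of its group, where chance alone gives about 1 in 20. Hist1h1c in tubastatin replicate 1, at 87.32 FPKM, lay below the other 3 tubastatin libraries at 91.8 to 92.3 FPKM and still above every vehicle library. Hist2h3c2 in AdKO replicate 3, at 4.8 FPKM, lay above the other 3 AdKO libraries at 3.41 to 3.56 FPKM. Summed H2B genes in AdCre replicate 1, at 149.1 FPKM, lay above the other 3 AdCre libraries at 136 to 137 FPKM.

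For Hist1h1c and Hist1h4k the tubastatin and AdKO effects had opposite signs and their difference had an unadjusted limma p under 0.05. The difference was 0.79 on the log2 scale for Hist1h1c (limma adjusted p = 0.0917) and -1.15 for Hist1h4k (limma adjusted p = 0.470), so neither passed after adjustment over all genes. The Hist1h4k values rest on 4 to 31 reads per library. Neither difference can be told apart from cohort, age or genotype.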

How the results depend on the processing

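The count of histone genes called stayed at 0 in 63 of 65 recomputed counts. It was 1 (Hist1h1c) for tubastatin against vehicle under TPM and under voom on library totals, where the log2 fold change was 0.63 and 0.59. The cause was not tested. The fits run with no filter covered 41 genes and those at a mean FPKM of at least 5 covered 3, each with 0 called. Of 505 fold changes 482 kept sign and side of the threshold. Those that turned were near 0. Hist2h3c2 with tubastatin gave 0.041 under TPM, 0.011 under voom on library totals, and -0.19 to 0.14 with single libraries left out. Hist3h2a with tubastatin gave -0.056 to 0.22 with single libraries left out. Hist3h2a with AdKO gave -0.0022 under voom on the table's own scale, -0.30 without AdKO replicates 1 and 4, and -0.16 to 0.15 with single libraries left out. The difference of effects for Hist1h2bj was 0.022 under TPM and -0.16 to 0.13 with single libraries left out, and for Hist3h2a -0.086 to 0.25. Class sums moved by less than the spread between libraries in all 100 recomputations, though small ratios changed sign. H2A with tubastatin gave 0.036 under TPM and up to 0.093 with single libraries left out, H3 with tubastatin -0.094 without vehicle replicate 1 and -0.013 without vehicle replicate 3, and H2A with AdKO -0.19 without AdKO replicate 1. Same-numbered libraries correlated at -0.104 to 0.0178 between vehicle and tubastatin and at -0.232 to 0.33 between AdCre and AdKO. AdCre replicates 1 and 3 correlated best with their own number in AdKO, and no vehicle library did with its number in tubastatin. These correlations cannot settle whether the numbers pair the libraries. With the replicate block 0 histone genes were called in all 3 comparisons.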

Other observations

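A pair of low H2B genes, not tested, is given by reads in each library. Hist1h2bk was recovered at 2, 2, 3 and 7 reads in AdCre replicates 1 to 4 and at 0 reads in each AdKO library, and at 1, 3, 6 and 3 reads in vehicle and 0, 0, 8 and 0 in tubastatin. Hist1h2bn was recovered at 2, 2, 2 and 1 reads in AdCre and at 2, 5, 4 and 10 in AdKO, so that AdKO replicate 1 tied with AdCre replicates 1 to 3. Both were chosen after their values were seen. They hold 25.8% and 13.6% of their 50-base windows unshared, so their values are uncertain, and with no filter on low values 0 of the 41 histone genes were called by limma in this comparison.

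Hist3h2ba, an H2B gene on chromosome 11, stood at 0.0851, 0.0817, 0.743 and 0.154 FPKM in vehicle and at 1.25, 1.47, 0.628 and 1.06 in tubastatin, at 1 to 21 reads over all 16 libraries. Vehicle replicate 3 was the 1 vehicle library within the tubastatin range. Its mean was below 1 FPKM, and it was not among the genes tested.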
